A study of Mus musculus with 11 samples.

Results

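The 6 potassium channel genes Kcnj8, Abcc9, Kcna5, Kcnma1, Kcnmb1 and Kcnk3, which are known from the smooth muscle and pericytes of blood vessel walls, were followed through the mesenchymal cells of the mouse liver. They were chosen by symbol, and all 6 were found among the 27998 genes of the 10x tables and in the Smart-seq2 tables. The cells came from male Pdgfrb-BAC-eGFP mice, 10-16 weeks old and on a C57BL/6 background, in which cells that transcribe Pdgfrb carry GFP. Every sample thus shares the transgene and the sort of GFP-positive cells, which were stained for CD45 and CD102. The study used digestion protocols 1 and 2 with independent gating strategies, and protocol 2 also isolated HSCs on a Histodenz gradient. In 10x Chromium, uninjured mice and mice given CCl4, a toxin that injures the liver around the central vein, for 6 weeks were each digested with protocol 1 or with protocol 2, and mice killed 72 h after a single dose of CCl4 with protocol 2. Each of these 5 libraries pooled 3 mice and was the only one of its condition and protocol. In Smart-seq2, which reads full-length RNA of 1 sorted cell per well, cells were sorted onto 6 plates from uninjured mice, from mice 14 days after bile duct ligation (BDL) and from mice given CCl4 for 6 weeks. The wells of 1 mouse name on 1 plate are called a portion here, and the labels do not say whether the same name on different plates is the same animal.

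A potassium channel that opens lets potassium leave the cell, which makes the inside more negative, closes voltage-gated calcium channels and relaxes a contractile cell. Kcnj8 encodes Kir6.1, the pore of the ATP-sensitive channel of vessel walls, and Abcc9 encodes SUR2, the regulatory subunit that senses nucleotides and binds channel-opening drugs. Kcna5 encodes the voltage-gated channel Kv1.5. Kcnma1 encodes the pore of the large-conductance channel opened by calcium and voltage, and Kcnmb1 its smooth muscle β1 subunit, which raises its sensitivity to calcium. Kcnk3 encodes TASK-1, a leak channel closed by acid. Hepatic stellate cells (HSCs) are the vitamin A-storing pericytes of the sinusoids, vascular smooth muscle cells (VSMCs) surround the larger vessels, and fibroblasts (FBs) lie in the connective tissue around them.

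The genes lie on 4 chromosomes, given here in GRCm38 coordinates of the GENCODE annotation. Kcnj8 (ENSMUSG00000030247, chromosome 6, 142564837 to 142571614) and Abcc9 (ENSMUSG00000030249, chromosome 6, 142587862 to 142702315) are neighbours on the minus strand with 16247 bases between them. Kcna5 (ENSMUSG00000045534) is on the same chromosome and strand at 126532551 to 126535412. Kcnma1 (ENSMUSG00000063142) spans 23289431 to 24014491 on the minus strand of chromosome 14. Kcnmb1 (ENSMUSG00000020155) spans 33963013 to 33973641 on chromosome 11 and Kcnk3 (ENSMUSG00000049265) spans 30588170 to 30625271 on chromosome 5, both on the plus strand.

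Because the members divided by cell type, as described below, their promoters were read for the letters of 2 motifs with a known place in mural cells. RefSeq promoter windows of GRCm38.p6, from 250 bases before to 50 bases after the start of transcription, were at hand for 5 of the 6 genes, all but Kcnk3. The CArG box, bound by serum response factor at many smooth muscle genes, was in 0 of these 5 windows and in 1.63% of all 32851 windows. With 1 letter off it was in the Kcnj8 window alone, against 19.9% of all windows. TGGGAA, the core that the Notch effector RBPJ binds, was in the windows of Kcnj8, Abcc9, Kcna5 and Kcnmb1 on either strand, against 25.6% of all windows, and not in that of Kcnma1. The Kcnj8 match and, for Abcc9 and Kcna5, the match farthest before the start are printed 5′ to 3′ on the strand of the gene, with the match in capitals, and they lie at chr6:142571641-142571670, chr6:142702478-142702507 and chr6:126535702-126535731, all on the minus strand.
Kcnj8, CArG box with 1 letter off: gagcagcgagCCTTTTAAAGatgtgtgtgc
Abcc9, TGGGAA: ggtggtcctgaaTGGGAAtggccggagtga
Kcna5, TGGGAA read on the opposite strand: catctaaagcagTTCCCAccccctggagtc
A match of letters does not show that a factor binds there.

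Cells were named from marker genes as FB-like, HSC-like and VSMC-like. The 10x libraries held 5454 to 7311 cell barcodes, a total of 25965670 to 86664080 UMIs and a median of 4300 to 11344 UMIs per kept cell, and any pair of libraries shared 33 to 74 barcodes. Protocol 1 gave FB-like and VSMC-like cells and protocol 2 gave HSC-like cells, so protocol and cell type cannot be told apart. The VSMC markers (Tagln, Acta2, Tpm2, Pln and Myh11) summed to 32473 and 29064 CPM (UMIs of a gene per 1000000 UMIs of a group of cells) in the VSMC-like cells of the uninjured and 6-week libraries, and the HSC markers to 24635, 3702 and 11059 CPM in the HSC-like cells of the uninjured, 72 h and 6-week libraries. Clusters led by the endothelial gene Clec4g, with 825 cells at 72 h and 1029 cells at 6 weeks, stayed unnamed although their HSC markers summed to 10681 and 16231 CPM, and they are given apart. All 10x intervals below are 95% intervals of counting error alone, and with 1 library per condition and protocol no 10x difference between conditions was tested.

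Among the named types Kcnj8 and Abcc9 were highest in HSC-like cells, while Kcna5, Kcnma1, Kcnmb1 and Kcnk3 were highest in VSMC-like cells, in both technologies. The unnamed Clec4g-led clusters of the injured libraries, given apart below, each held more Kcnj8 than the HSC-like cells of the same library. In the library of longer CCl4 treatment the unnamed cluster also held more Abcc9. The members had been proposed with earlier results of these data known, so their levels by cell type are a description and carry no test.

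In HSC-like cells Kcnj8, the pore of the ATP-sensitive channel, made up 539 CPM (532 to 546) in uninjured livers, 310.4 CPM (306 to 314) at 72 h and 345 CPM (339 to 350.3) after 6 weeks of CCl4. In protocol 1 its level in uninjured livers was 74.1 CPM (67.2 to 81.4) for VSMC-like cells and 21.4 CPM (19.5 to 23.6) for FB-like cells, and after 6 weeks the same types held 56.3 and 34.9 CPM. The order was thus HSC-like, VSMC-like, FB-like in both conditions, with no overlap of the counting intervals. At 72 h, 191 cells of protocol 2 named FB-like held 50.9 CPM (43.0 to 59.8), or 81.2 CPM when thinned to 2000 UMIs. Their FB markers summed to 1705 CPM, against 8704 CPM in FB-like cells of the uninjured protocol 1 library, and their VSMC markers to 5230 CPM, so that the name is uncertain.

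Abcc9, the regulatory subunit, followed Kcnj8 in HSC-like cells with 762 CPM (754 to 770.4) in uninjured livers, 344 CPM (339.5 to 348) at 72 h and 469 CPM (462 to 475) at 6 weeks. Outside HSC-like cells the order of the types was the other way round from Kcnj8. FB-like cells held 57.5 CPM (54.2 to 60.9) and VSMC-like cells 30.4 CPM (26.1 to 35.3) in uninjured livers, and 76.6 and 33.0 CPM after 6 weeks. The HSC markers summed to 675 and 457.8 CPM in these FB-like and VSMC-like cells of uninjured livers, and their part in the low levels was not tested.

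The lower CPM of Kcnj8 in injured HSC-like cells went with deeper cells. UMIs of Kcnj8 per HSC-like cell were 3.65, 3.71 and 3.27 in the uninjured, 72 h and 6-week libraries, beside a median of 6717, 11582 and 9870 UMIs per cell. UMIs of Abcc9 per cell were 5.16, 4.11 and 4.44. With cells thinned to 2000 UMIs, which leaves out cells with fewer, 60.2%, 43.8% and 44.8% of HSC-like cells kept a UMI of Kcnj8. For Abcc9 the thinned shares were 75.1%, 49.7% and 59.1%. Before thinning the shares were 89.1%, 87.2% and 82.8% for Kcnj8 and 96.5%, 93.0% and 93.7% for Abcc9. Both genes therefore made up a smaller share of the RNA counted in HSC-like cells of the injured libraries. The count of Kcnj8 UMIs per HSC-like cell, however, was not lower at 72 h than in uninjured livers. These values leave out the unnamed Clec4g-led cells of the injured libraries, which held more Kcnj8 than the HSC-like cells beside them.

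Kcna5, the voltage-gated channel, had a level of 201 CPM (189.7 to 213) in VSMC-like cells of uninjured livers and 263 CPM (254 to 271) after 6 weeks of CCl4, against 0.334 to 0.744 CPM in the HSC-like cells of the 3 protocol 2 libraries, the interval of the uninjured library overlapping both others. A UMI was found in 46.5% (44.1 to 49.0) of uninjured and 61.3% (59.5 to 63.0) of 6-week VSMC-like cells, whose median depths were 3214 and 4552 UMIs. Among uninjured HSC-like cells 0.353% held one. At 2000 UMIs per cell these VSMC-like shares came to 34.6% and 38.8%. FB-like cells held 2.38 CPM (1.75 to 3.15) in the uninjured and 12.1 CPM (10.5 to 13.9) in the 6-week library. The summed VSMC markers in FB-like cells differed in the same direction, at 541 and 1405 CPM, and the share of VSMC-like cells in the library was 29.1% and 53.2%. Whether RNA set free by VSMCs gave these UMIs was not tested.

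Kcnk3, the leak channel, was at 166 CPM (155 to 177) in VSMC-like cells of uninjured livers and at 90.5 CPM (85.6 to 95.6) after 6 weeks. It was far lower but measurable in HSC-like cells, at 9.28 CPM (8.42 to 10.2), 11.3 CPM (10.6 to 12.1) and 5.56 CPM (4.87 to 6.32) in the uninjured, 72 h and 6-week libraries. The order of these 3 values depends on which cells are named HSC-like, since with the unnamed cells included, 47 of them in the uninjured library, they were 9.64, 16.2 and 9.22 CPM, and at a clustering resolution of 1.2 the uninjured value was 4.79 CPM. FB-like cells of protocol 1 held 2.77 and 4.54 CPM. The unnamed Clec4g-led cells stood between the types, at 59.3 CPM (54.3 to 64.8) at 72 h and 24.1 CPM (21.2 to 27.3) at 6 weeks, and Kcnk3 was itself among the 10 genes of highest fold of the 72 h cluster.

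Of the large-conductance channel, the β1 subunit was the better detected part in these 3′ counts. Kcnmb1 stood at 95.8 CPM (88.0 to 104) in uninjured and 100.03 CPM (94.9 to 105) in 6-week VSMC-like cells, with overlapping intervals. The pore gene Kcnma1 stood at 22.6 CPM (18.9 to 26.8) and 9.92 CPM (8.34 to 11.7) in the same cells. HSC-like cells held 2, 3 and 3 UMIs of Kcnma1 in all, which is 0.0434, 0.0398 and 0.0716 CPM, against 4.02, 8.74 and 3.10 CPM of Kcnmb1. The 191 FB-like cells at 72 h held 0 UMIs of Kcnma1 and of Kcna5, and a count of 0 there allows up to 1.04 CPM.

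**Figure D1:**
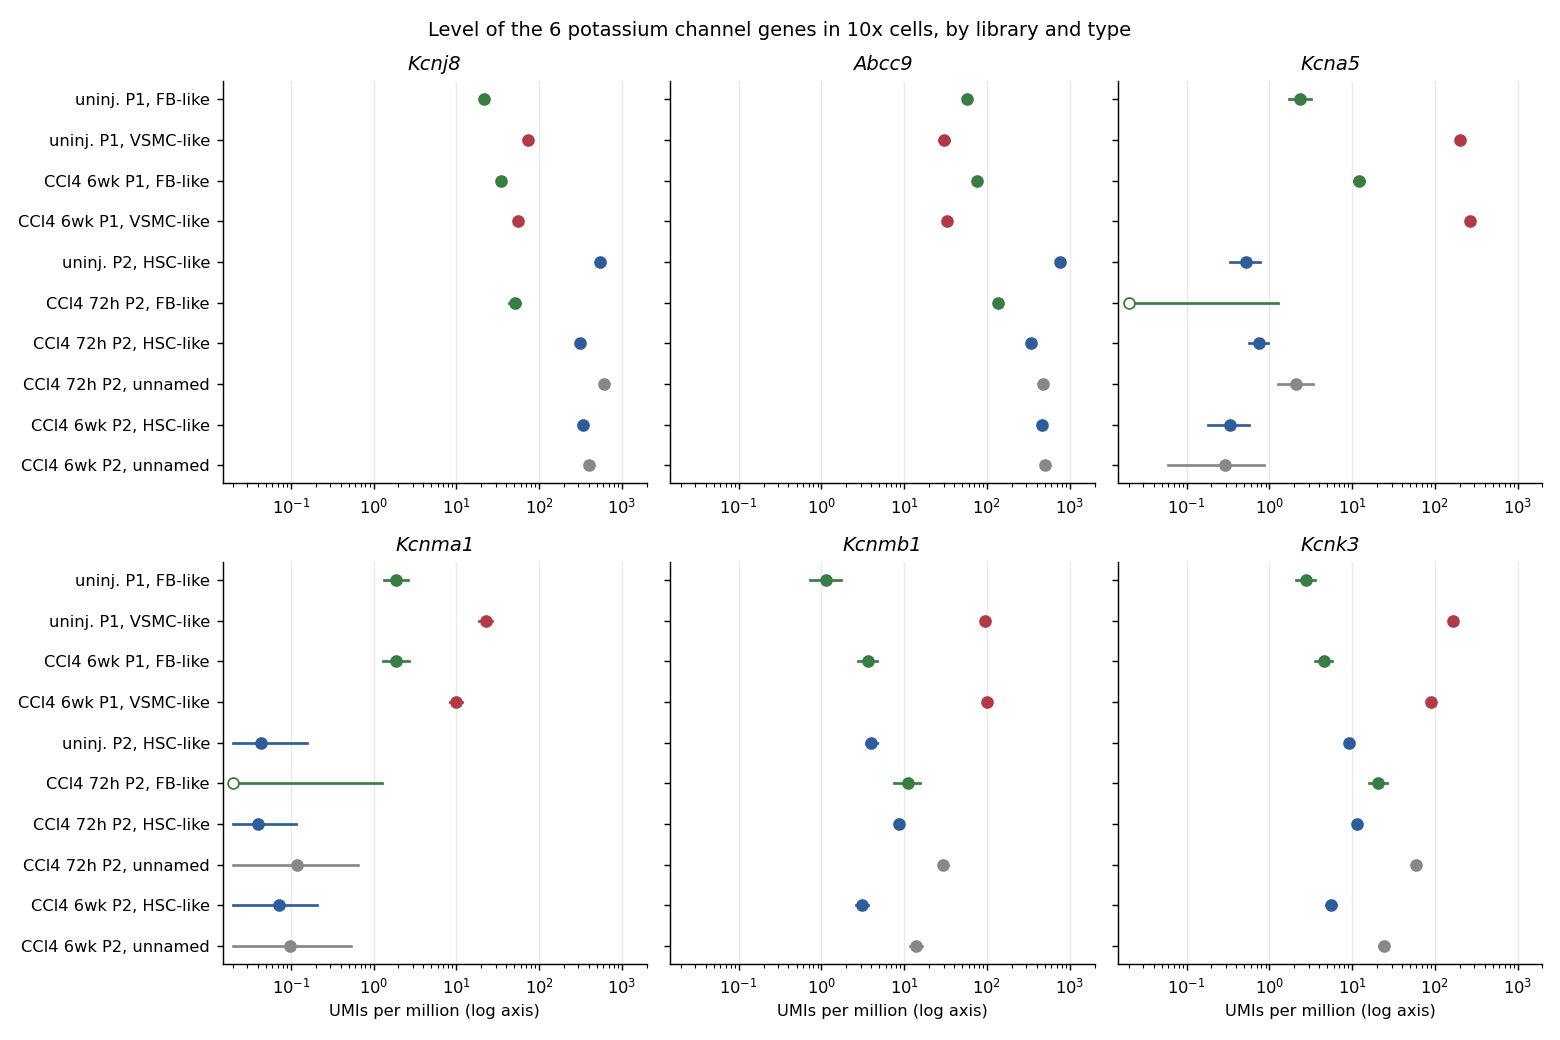
Level of each gene (horizontal axis, CPM on a log scale) in every 10x library and cell type with at least 100 cells, where P1 and P2 are the digestion protocols. Points are levels and bars are 95% Poisson intervals, bars that reach the left edge run below the axis, and an open circle is a count of 0. HSC-like cells (blue) lie at 310.4 to 539 for Kcnj8 and at 344 to 762 for Abcc9, and VSMC-like cells (red) at 201 and 263 for Kcna5, with FB-like cells in green and unnamed cells in grey.

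Whether pore and regulatory subunit were seen in the same cells was read from the shares of cells with both. In uninjured HSC-like cells 86.6% (85.8 to 87.4) held UMIs of both Kcnj8 and Abcc9, against 86.0% for the product of both shares, and 46.3% against 45.2% at 2000 UMIs. At 72 h and 6 weeks 82.3% and 78.7% held both. In FB-like cells of uninjured livers the genes were found together more often than the product of the shares, in 4.14% (3.54 to 4.79) against 1.60% of cells. Abcc9 was seen in 52.3% of the FB-like cells with a UMI of Kcnj8 and in 17.5% of those without. One FB-like cluster, led by Iyd and Cxcl13, held both genes at the highest level of the type, with 52.2 CPM of Kcnj8 and 134 CPM of Abcc9 in uninjured livers, against 11.3 and 39.0 CPM in the Sfrp2-led and 6.26 and 13.7 CPM in the Ly6c1-led cluster. Kcnma1 and Kcnmb1 were both seen in 2.63% (1.92 to 3.52) of uninjured VSMC-like cells, against a product of 1.93%, and at 2000 UMIs the values were 0.793% (0.410 to 1.38) and 0.749%.

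In Smart-seq2 wells the levels were compared over separate portions. HSC-like wells again held the most Kcnj8 and Abcc9, whereas FB-like wells averaged more Kcnj8 than VSMC-like wells, the other way round from 10x. Counts were scaled to reads per 1000000 reads on genes (RPM) in the summed wells of each type and portion. HSC-like wells came from 2 uninjured portions of plate 6, with 1191 and 1195 RPM of Kcnj8 and 2231 and 2482 RPM of Abcc9. All 154 and 158 kept wells of these portions were HSC-like, and no other portion held HSC-like wells. For HSC-like wells, portion and cell type therefore cannot be told apart. In 15 FB-like portions Kcnj8 averaged 221 RPM ± 163 (SD) and Abcc9 468 RPM ± 273, and in 15 VSMC-like portions 133 RPM ± 75.1 and 109 RPM ± 54.6. The FB-like and VSMC-like portions overlapped for both genes, with 45.7 to 636 and 43.8 to 309 RPM for Kcnj8 and 70.2 to 1287 and 43.1 to 221 RPM for Abcc9, whereas both HSC-like portions lay above every other portion.

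The other 4 genes separated the VSMC-like portions from the rest, apart from Kcnma1. Kcna5 averaged 267 RPM ± 88.4 (n = 15, 149.6 to 420.3) in VSMC-like portions and reached 5.91 RPM at most in FB-like and 2.90 RPM in HSC-like portions. Kcnmb1 averaged 298 RPM ± 96.9 (n = 15, 124 to 452) there and reached 13.6 RPM elsewhere. Kcnk3 averaged 173 RPM ± 63.4 (n = 15, 97.8 to 309) and reached 36.8 RPM in FB-like and 26.6 RPM in HSC-like portions. Kcnma1 averaged 35.3 RPM ± 21.3 (n = 15, 8.71 to 79.6) in VSMC-like portions and 11.5 RPM ± 18.1 (n = 15, 0 to 58.7) in FB-like portions, which overlapped.

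Per kilobase of exon the genes can also be set beside each other within a type. On this scale (RPKM) the HSC-like level of Kcnj8 was 468 ± 1.12 (SD, n = 2) and that of Abcc9 281 ± 21.2. In VSMC-like portions the highest of the 6 levels was that of Kcna5, at 93.4 ± 30.9 (n = 15), followed by Kcnmb1 at 71.2 ± 23.1, Kcnj8 at 52.4 ± 29.5, Kcnk3 at 43.5 ± 15.9, Abcc9 at 13.1 ± 6.53 and Kcnma1 at 2.08 ± 1.253. Neighbours in this order from Kcna5 to Kcnk3 were nearer to each other than their SDs. The long annotated exon union of Kcnma1, 16976 bases, lowers its value on this scale relative to RPM. Averaged over all 15 FB-like portions, only Kcnj8 (86.9 ± 63.9) and Abcc9 (55.9 ± 32.6) exceeded 1 RPKM. Within the 5 BDL portions, however, Kcnma1 averaged 1.71 ± 1.29 RPKM and Kcnk3 2.08 ± 4.03 RPKM.

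**Figure D2:**
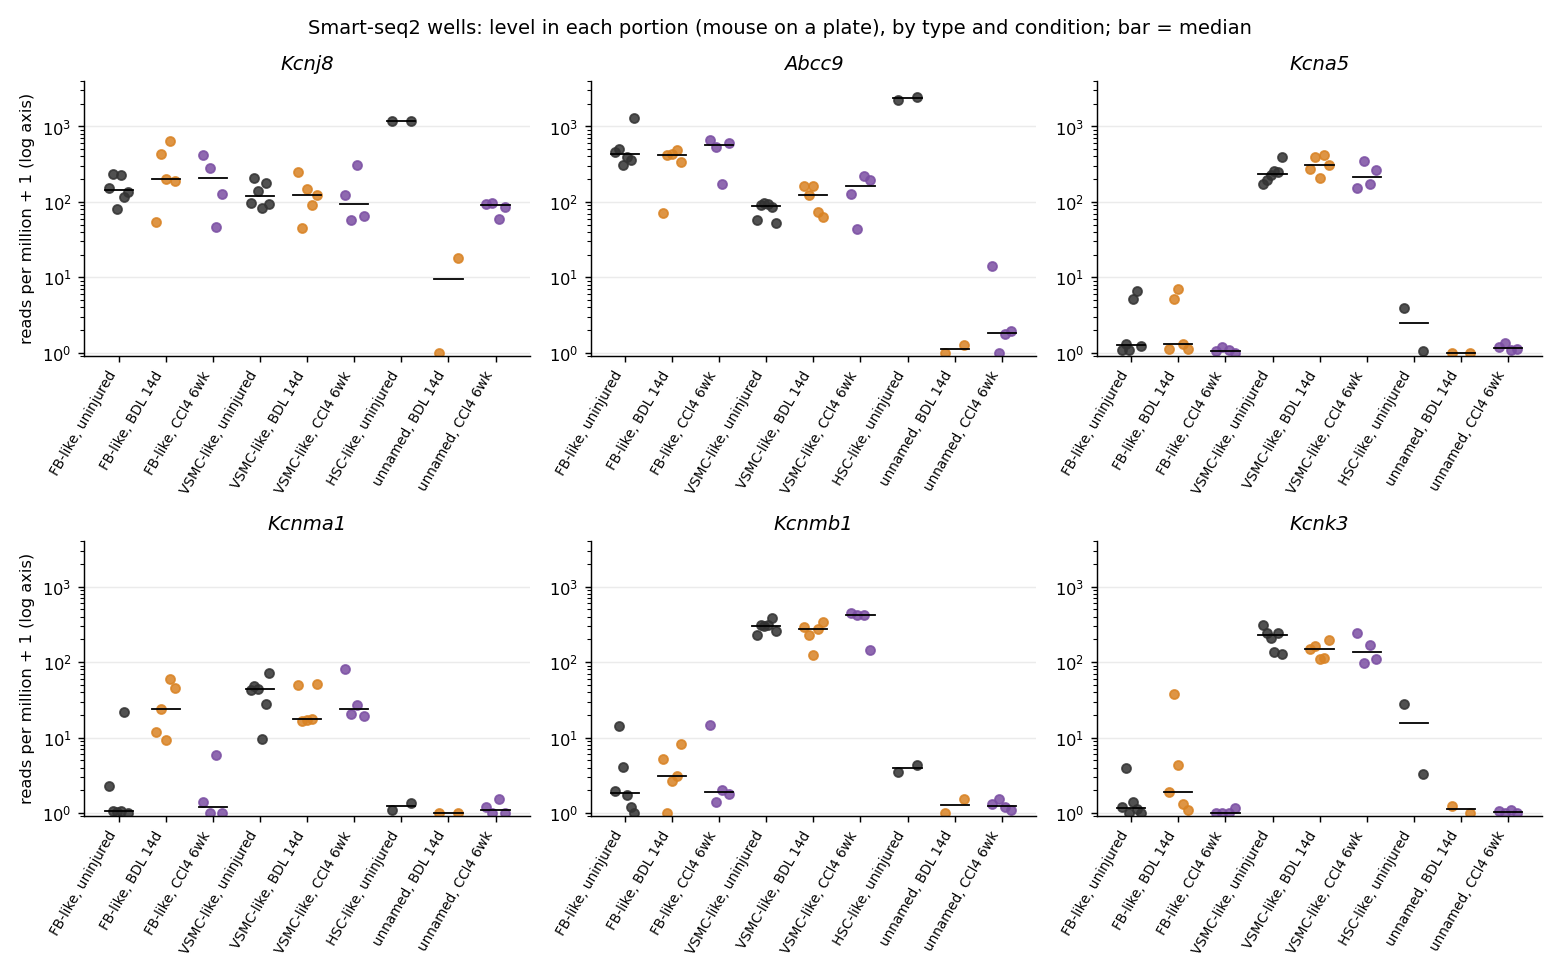
Level of each gene in Smart-seq2 wells summed per portion (vertical axis, RPM), by cell type and condition, with 1 point per portion. For Kcnj8 and Abcc9 both HSC-like portions (1191 and 1195, 2231 and 2482) lie above all other portions, and for Kcna5 the VSMC-like portions lie between 149.6 and 420.3 with the other types at or under 5.91.

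The VSMC-like cells themselves were not uniform. Clusters were formed without any Kcn gene and without Abcc9 among the variable genes. In the 10x libraries of protocol 1, cluster 2 (2486 cells), the richest in the pericyte gene Higd1b, had the highest Kcna5, at 328 CPM (316 to 339) against 196 CPM (186 to 207) in the Tcap-led and Cnn1-rich cluster 8 (1760 cells). Cluster 8 held more Kcnma1, at 21.4 against 7.497 CPM, and more Kcnmb1, at 121 against 95.1 CPM. At a resolution of 1.2, however, Kcna5 was among the 10 leading genes of another cluster than Higd1b. Kcnj8 had overlapping counting intervals in clusters 2 and 8, at 53.1 and 51.9 CPM. Kcnk3 was 187 and 147 CPM in the uninjured library and 92.8 and 91.0 CPM in the 6-week library.

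The third 10x cluster of this type, cluster 12, with Npnt among its leading genes, had other proportions. Of its 427 cells 200 were called as doublets and its median depth was 6239 UMIs, against 3732 and 3588 in clusters 2 and 8. With all its cells it held 76.3 CPM of Kcna5 and 114 CPM of Kcnj8, and with its 227 other cells alone 12.5 CPM (6.63 to 21.3) of Kcna5 and 227 CPM (199 to 258) of Kcnj8. The latter cells held 161 CPM of Abcc9 and 199 CPM (173 to 228) of Kcnk3, against 117 CPM of Kcnk3 with the doublets. Without called doublets Kcnk3 in clusters 12, 2 and 8 was 349.8, 188 and 146 CPM in the uninjured library and 118 (93.6 to 147), 92.5 (85.9 to 99.6) and 90.4 CPM in the 6-week library, where the intervals of clusters 12 and 2 overlapped. With the doublets cluster 12 stood below cluster 2 in both libraries, at 181 and 78.6 CPM, so its Kcnk3 rank depends on the doublets. By CPM, Kcna5 was lowest, and Kcnj8 and Abcc9 highest, in cluster 12 with and without doublets in both libraries. The Kcnj8 level came from few cells, with 117 UMIs in 33 of 104 cells of the uninjured library without doublets. At 2000 UMIs per cell, 9.32% of uninjured cluster 12 cells kept a UMI of Kcnj8, against 12.2% and 10.5% in clusters 2 and 8. Without doublets these shares were 12.3%, 11.9% and 10.7%. In the 6-week library cluster 12 had the highest share, at 11.7% against 9.79% and 9.70%, and at 17.8% without doublets. Thinning left out cells with fewer than 2000 UMIs, which without doublets were 31 of 104 uninjured cells of cluster 12. Before thinning and without doublets, Kcnj8 was seen in 31.7%, 15.3% and 15.5% of uninjured cells of clusters 12, 2 and 8. At 6 weeks these shares before thinning were 26.8%, 15.3% and 18.6%.

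A cluster that also had Npnt among its leading genes was found in the Smart-seq2 wells (cluster 9, 75 wells), where Kcna5 was again the lowest and Kcnk3 the highest, as without doublets in 10x, and Kcnj8 was not the highest. It held 3.91 RPM of Kcna5, against 393, 210.3 and 237 RPM in clusters 0 (Rergl and Pcsk1), 1 (Ryr2 and Tcap) and 6 (Higd1b and Fabp7). Kcnk3 was at 465.8 RPM in it and at 140.5 to 173 RPM in the others. Its Kcnj8, however, was the lowest of the 4 clusters over all conditions, at 63.5 RPM against 104 to 292 RPM, although in CCl4 wells it was above cluster 0, at 86.7 against 52.4 RPM. In summed wells the Higd1b-rich cluster 6 had the most Kcnj8 (292 RPM), also within each condition, and less Kcna5 than cluster 0. By portion the Kcnj8 rank did not always hold. In CCl4 portions with at least 5 wells of cluster 6, its Kcnj8 ranged from 63.6 to 1673 RPM, the latter in 6 wells. The portion with 63.6 RPM had 17 such wells, and its cluster 1 wells held 147 RPM. The Abcc9 of cluster 6 was 329 RPM over all conditions, but 236 against 270.3 RPM in cluster 9 within the uninjured wells. Its Kcnma1 was 4.07 RPM, with 94.02% of 234 reads from 1 well, and cluster 1 had the most Kcnmb1, at 410.4 RPM. The clusters of both technologies were made separately, so that clusters with a shared leading gene need not be the same cells.

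**Figure D3:**
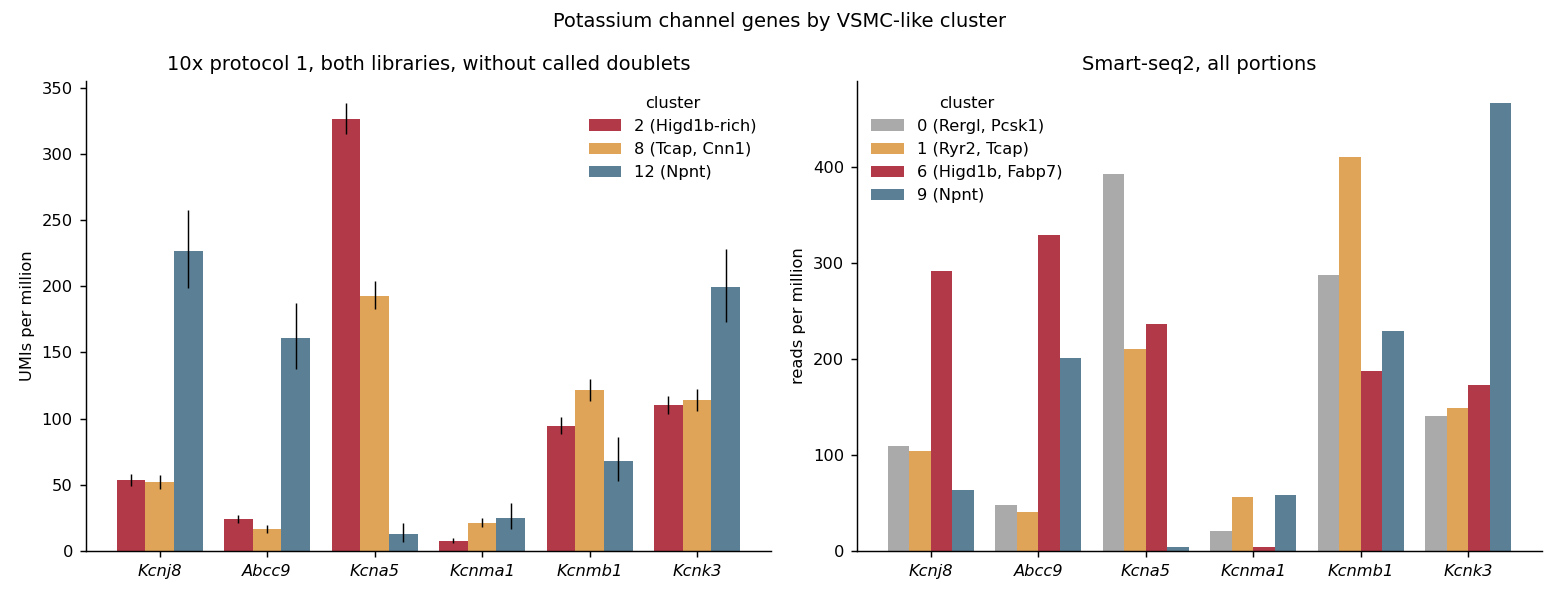
Level of the 6 genes in the VSMC-like clusters of the 10x protocol 1 libraries without called doublets (left, CPM with 95% Poisson intervals) and of the Smart-seq2 wells of all portions (right, RPM, summed over wells, with no error). The Npnt-rich cluster (blue) is low in Kcna5, at 12.5 and 3.91, and its Kcnk3 is 199 and 465.8, the former 117 with called doublets. It differs between the sides in Kcnj8, at 227 and 63.5.

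The lower Kcnk3 of the 6-week protocol 1 library was seen within each VSMC-like cluster. It was 187 against 92.8 CPM in cluster 2, 147 against 91.0 CPM in cluster 8 and 181 against 78.6 CPM in cluster 12 for the uninjured and 6-week library. The higher Kcna5 was not seen in each of them, with 294 against 335 CPM in cluster 2, 196 in both libraries in cluster 8 and 62.2 against 84.7 CPM in cluster 12. Without its called doublets, cluster 12 held 8.20 CPM (1.69 to 23.96) and 14.7 CPM (7.07 to 27.1) of Kcna5, with overlapping intervals. Cluster 2 made up 592 of 1670 VSMC-like cells of the uninjured and 1894 of 3003 of the 6-week library.

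HSCs differ along the lobule between portal and central vein. A score of 52 portal less 29 central genes, none of them a member, was used to order HSC-like cells. Those of each protocol 2 library were cut into 3 bins of equal size. The study drew these genes from its own uninjured HSCs, as a component of their variability picked by its correlation with Ngfr. The bins of uninjured cells are therefore not independent of the list. Central and portal here refer to the score, since the place of the sequenced cells was not measured. In uninjured livers Kcnj8 was 709 CPM (695 to 723) in the most central, 518 CPM in the middle and 399.8 CPM (389.9 to 409.9) in the most portal bin. Abcc9 went the same way, with 964, 771 and 562 CPM. Kcnk3 went the other way, with 1.23 CPM (0.726 to 1.94), 2.52 CPM and 23.8 CPM (21.4 to 26.4), and so did Kcnmb1, with 1.23, 2.71 and 7.998 CPM. Over the 6803 cells, Spearman's rho with the score was -0.315 for Kcnj8, -0.391 for Abcc9, 0.256 for Kcnk3 and 0.117 for Kcnmb1, as a description of cells of 1 library that share its depth. The contractile genes Tagln (159, 316 and 628 CPM) and Myh11 (2.72, 6.00 and 44.2 CPM) were highest in the same bin as Kcnk3, while Pln, which marks VSMCs, was at 0 UMIs.

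In the injured libraries the order of the bins was different for Kcnj8, and the most central bin differed most from uninjured livers. At 72 h its level was 327, 293 and 313 CPM from the most central to the most portal bin, and at 6 weeks 305, 312 and 419.8 CPM, so that the most portal bin was the highest at 6 weeks and the lowest in uninjured livers. At 72 h the ratio of the most portal to the most central bin was 0.957, and 1.07 with cells thinned to 2000 UMIs. The bins hold the HSC-like cells only, which leaves out 47 unnamed cells of the uninjured library and the 825 and 1029 Clec4g-led cells of the injured ones. With these cells kept, most of them in the most portal bin, Kcnj8 was 708, 516 and 396 CPM in the uninjured, 325, 291 and 414 CPM in the 72 h and 309, 341 and 424 CPM in the 6-week library. Abcc9 kept its highest level in the most central bin, with 378, 324 and 329.6 CPM at 72 h and 507, 456 and 442 CPM at 6 weeks, although with the unnamed cells kept the most portal bin was the highest at 72 h, at 382 against 375 CPM. Kcnk3 remained highest in the most portal bin, at 15.8 CPM at 72 h and 12.97 CPM at 6 weeks, against 9.36 and 2.14 CPM in the most central bin.

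The same cells were ordered by the share of their UMIs on the fibrillar collagen genes Col1a1, Col1a2 and Col3a1. The bin richest in collagen had the least Kcnj8, with 404, 299 and 247 CPM from the lowest to the highest bin at 72 h and 445, 355 and 245 CPM at 6 weeks. In uninjured livers the bins held 569, 564 and 481 CPM. Abcc9 differed less, with 390.3, 342 and 308 CPM at 72 h, 481, 496 and 431 CPM at 6 weeks and 723, 767 and 799 CPM in uninjured livers. Kcnk3 was 15.5, 9.84 and 9.36 CPM at 72 h and 10.6, 4.45 and 2.12 CPM at 6 weeks. Cells of the highest collagen bin were also deeper at 72 h, with a median of 12889 against 10217 UMIs, and at 2000 UMIs per cell Kcnj8 was seen in 53.0%, 41.4% and 37.2% of the cells of the 3 bins.

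**Figure D4:**
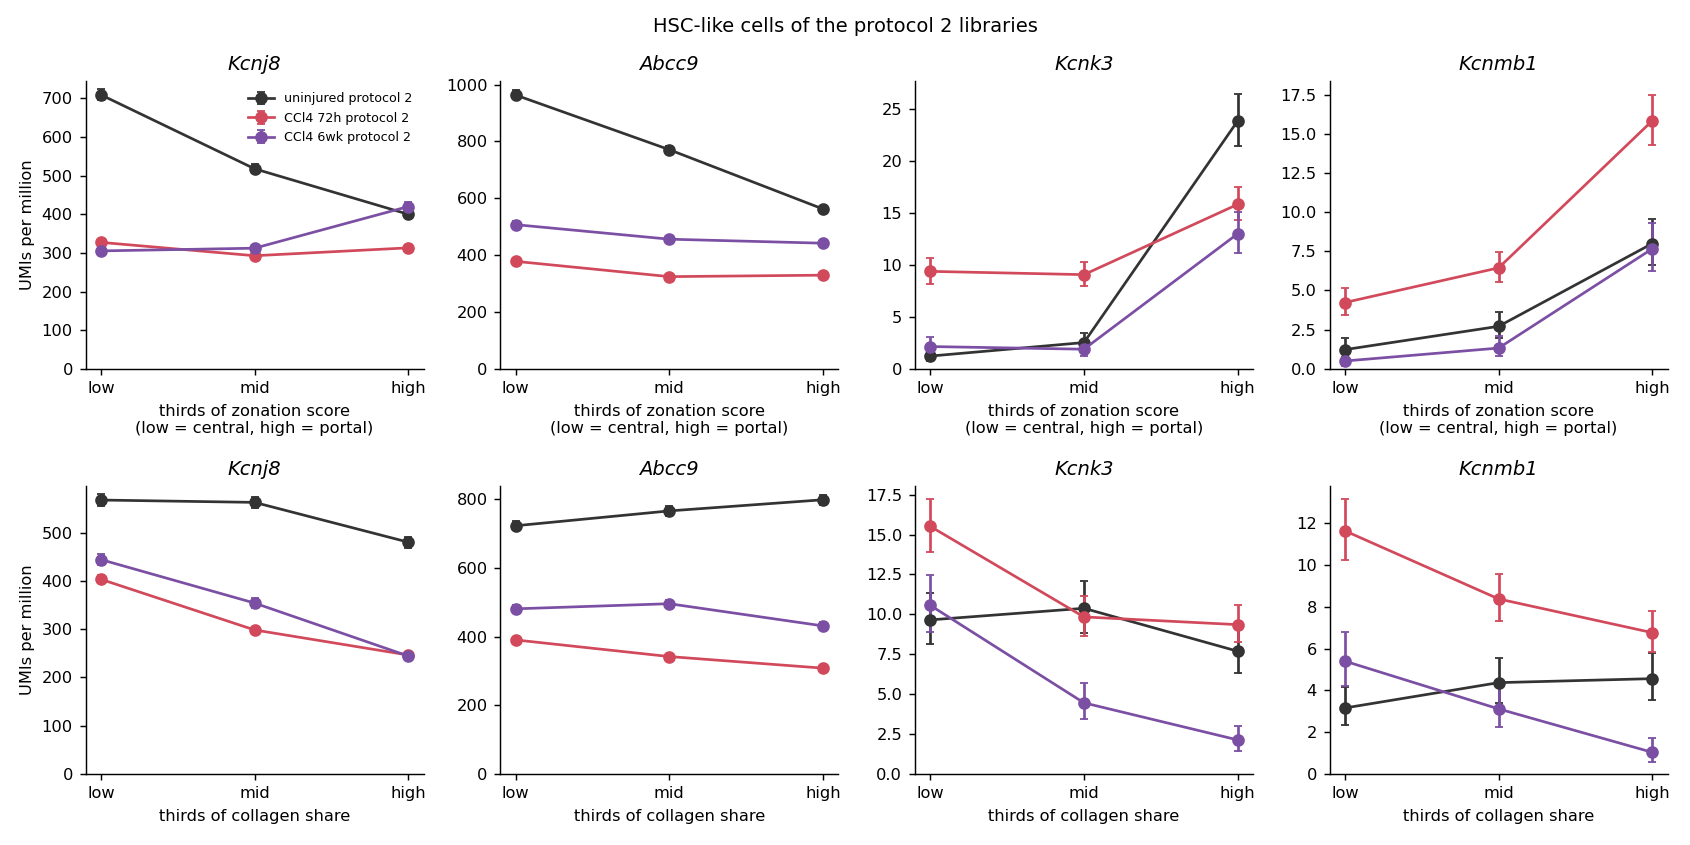
Level of Kcnj8, Abcc9, Kcnmb1 and Kcnk3 (CPM, with 95% Poisson intervals) in HSC-like cells of the 3 protocol 2 libraries, in 3 bins of equal size of the zonation score and of the fibrillar collagen share. Kcnj8 is 709 at the central and 399.8 at the portal end in uninjured livers, against 305 and 419.8 at 6 weeks, and is 404 and 247 in the lowest and highest collagen bin at 72 h.

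Kcnj8 also differed between the clusters of HSC-like cells after injury. At 72 h Kcnj8 ranged from 188 CPM in the proliferating cluster led by Hist1h2ap and Ccna2 to 476 CPM in the Angptl4-rich cluster, and reached 606 CPM in the unnamed Clec4g-led cluster, where Kcnmb1 was 29.7 CPM. At 6 weeks the Saa3-led cluster had 227 CPM of Kcnj8 and 425 CPM of Abcc9, and the Hk2-led cluster 397 and 478 CPM. The unnamed cluster, at 407 and 509.8 CPM, was higher than both.

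The question whether injury changes these channels in VSMCs and FBs was tested on the Smart-seq2 portions of plates 1 to 5, which hold 5 uninjured, 5 BDL and 4 CCl4 portions, with edgeR and with the plate as a term. Some portions may share an animal, in which case the p-values are too small. The study's methods count fewer uninjured mouse liver samples in Smart-seq2 than there are uninjured portions here. None of the 6 genes passed an adjusted p of 0.05 in any of the 5 comparisons by edgeR. The background was as low, since edgeR called 0.00767% of 13044 genes in VSMC-like wells for BDL against uninjured and 0% of the genes in each of the other comparisons. At an unadjusted p under 0.05, 1 member (Kcna5) was among 7.5% of all genes for BDL in VSMC-like wells, 0 members among 3.61% for CCl4 and 0 among 4.12% for BDL against CCl4. In FB-like wells 1 member (Kcnma1) was among 6.55% of 13297 genes for BDL and 0 among 2.41% for CCl4. DESeq2 called 0 of the 6 in VSMC-like wells, beside 2.94%, 1.46% and 1.29% of all genes, and in FB-like wells 1 (Kcnma1) beside 2.69% for BDL and 0 beside 0.895% for CCl4. The power of edgeR for BDL was read from simulated counts with the spread of these portions. With a log2 change of 2 it recovered 20 of 102 genes in VSMC-like and 2 of 102 in FB-like wells. With a log2 change of 1 it recovered 0 of 97 and 0 of 90 genes, so most changes of that size would be missed. The 1 gene called in the real VSMC-like wells, Sparcl1, had a log2 fold change of 1.19 ± 0.13 (SE).

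Kcna5 was higher in each BDL portion than in the uninjured portion of its plate. In VSMC-like wells the BDL portions held 268 and 394 RPM on plate 1, 204 and 420.3 RPM on plate 2 and 304 RPM on plate 4. The uninjured portions of plates 1 to 5 held 171, 191, 226, 258 and 244 RPM, and the groups overlapped. Here and below, BDL portions of the same plate are set against the same uninjured portion, so these comparisons are not independent. The log2 fold change was 0.73 ± 0.32 (SE), with an unadjusted p of 0.0428 and an adjusted p of 0.656 by edgeR and of 0.271 by DESeq2. A further uninjured portion, on plate 6, which held no injured mice and was outside the fit, stood at 398 RPM. The CCl4 portions held 149.6, 351, 169.9 and 261 RPM, with a log2 fold change of -0.00 ± 0.36 (SE) and an adjusted p of 1 by edgeR.

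Kcnk3 was lower in 4 of the 5 BDL portions than in the uninjured portion of their plate. The BDL portions held 147, 161, 107, 113 and 193 RPM, the CCl4 portions 245, 97.8, 166 and 108 RPM and the uninjured portions 309, 239, 210.5, 135 and 239 RPM. The groups overlapped. Cluster 9, with the most Kcnk3 and the least Kcna5 of the VSMC-like clusters, differed in share between portions. In the same order it made up 5.17%, 1.61%, 13.2%, 1.45% and 5.50% of the VSMC-like wells of the BDL portions. Its share was 26.7%, 0%, 8.0% and 8.70% in the CCl4 and 16.4%, 18.75%, 12.2%, 1.37% and 10.7% in the uninjured portions. The part of these shares in the levels of Kcnk3 and Kcna5 was not tested. The log2 fold changes were -0.59 ± 0.34 (SE) for BDL and -0.52 ± 0.40 (SE) for CCl4, with adjusted p-values of 0.765 and 1 by edgeR.

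The remaining log2 fold changes in VSMC-like wells ranged from -0.26 to 0.56 against uninjured, and each 95% interval held 0. Abcc9 had 0.51 ± 0.48 (SE) for BDL and 0.56 ± 0.55 (SE) for CCl4. Without the Higd1b-rich cluster 6, which held 4.59% to 41.9% of the VSMC-like wells of the BDL portions and 0% to 21.9% of those of the uninjured portions, the Abcc9 values were -0.28 and -0.19. Kcna5 was 0.81 without that cluster, and no call was gained.

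In FB-like wells the gene that stood out was Kcnma1. The BDL portions held 10.9, 23.1, 8.31, 58.7 and 44.4 RPM, the uninjured portions of plates 1 to 5 held 1.29, 0.0641, 0.0454, 0.0763 and 20.8 RPM and that of plate 6 held 0 RPM. Each BDL portion was above the uninjured portion of its plate, but the portion on plate 5, a plate without BDL wells, overlapped them, and 48.4% of its 533 reads came from 1 of 58 wells. In the BDL portions 25.3% to 86.5% of the reads came from 1 well each, with 86.5% in the highest portion, which had 9 FB-like wells. The log2 fold change was 6.46 ± 2.26 (SE; 95% interval 1.53 to 11.4), with an adjusted p of 0.638 by edgeR and, at 6.65, of 0.000779 by DESeq2. The adjusted p over all alternatives ran from 0.000779 to 1, so that the call depends on the tool and on the filter, as edgeR with no filter on low counts gave 0.00584. The CCl4 portions held 0.403, 0, 4.86 and 0 RPM.

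The wells with the reads were few and mostly of 1 cluster. A read of Kcnma1 was found in 8.89% to 22.2% of FB-like wells of the BDL portions, in 0% to 5.17% of those of the uninjured and in 0% to 10.3% of those of the CCl4 portions, a share looked at after the levels and given without a test. The Comp- and Col11a1-led cluster 7, of whose 137 wells 123 were from BDL portions, held 29 of the positive BDL wells and 2865 of their reads, at 58.0 RPM against 1.18 RPM in the other 157 FB-like BDL wells. Smooth muscle genes were higher in the positive wells. The 29 positive wells held 3295 RPM of Acta2 and 483 RPM of Myh11, against 166 and 60.7 RPM in the BDL wells outside cluster 7 and 480.2 and 53.1 RPM in uninjured FB-like wells, and the part of smooth muscle RNA was not tested. In all cluster 7 wells of BDL portions Myh11 was 160.1 RPM and Acta2 1425 RPM, against 7793 and 29143 RPM in VSMC-like wells. Most FB markers were lower in the positive wells. Clec3b, Dpt and Gpx3 were 15.95, 484.2 and 2075 RPM there. In all cluster 7 wells of BDL portions they were 81.1, 677 and 2302 RPM, so the cluster as a whole was low in them too. The BDL wells outside cluster 7 held 351.6, 1473 and 5462 RPM, and VSMC-like wells 0.158, 18.69 and 101.6 RPM. Entpd2 and Fbln2 were also lower than outside cluster 7, while Col15a1 was higher, at 233.7 against 187 RPM. The FB-like name of the positive wells is therefore uncertain, and their identity was not tested. Kcna5 was 3.22 RPM in cluster 7 and 272 RPM in all VSMC-like wells, where Kcnma1 was 34.3 RPM. VSMC-like wells were not alike in Kcna5, as their cluster 9 held 3.91 RPM of it beside 58.4 RPM of Kcnma1. The 29 positive wells held 9.22 RPM of Kcna5 and 22.96 RPM of Kcnmb1, which was 311.7 RPM in all VSMC-like wells. Of the cholangiocyte list, Spp1 was 1891 RPM in cluster 7 and 0.909 RPM in uninjured FB-like wells, and the other 4 genes were at 1.17 RPM (Epcam), 0.121 RPM (Krt19) and 0 RPM (Krt7 and Cldn4).

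**Figure D5:**
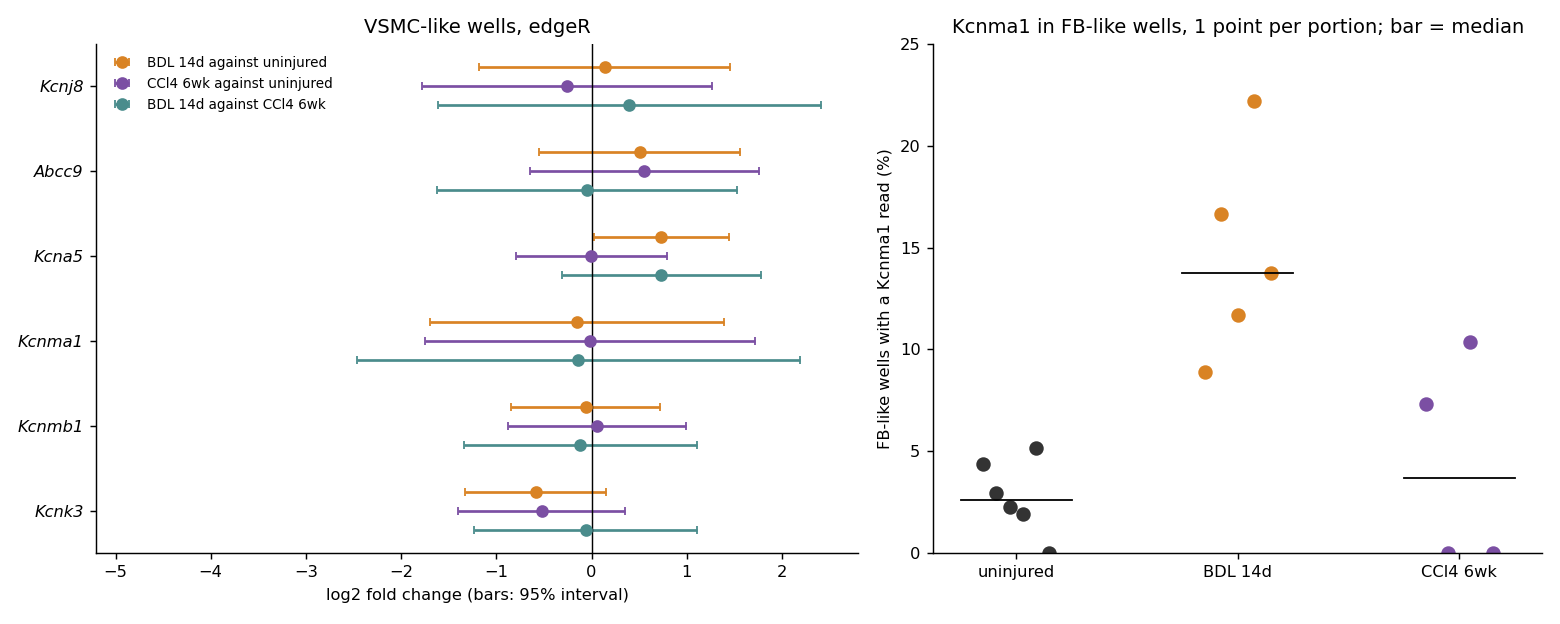
Left, edgeR log2 fold change of each gene in VSMC-like wells with its 95% interval, for the 3 comparisons in the legend, all at an adjusted p above 0.05. Right, share of FB-like wells with a read of Kcnma1 (%), 1 point per portion and a bar at the median, which is 8.89 to 22.2 in BDL and 0 to 5.17 in uninjured portions.

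Kcnj8 and Abcc9 in FB-like wells did not pass either. Kcnj8 was 53.5, 434, 198, 636 and 187 RPM in the BDL and 150.2, 235, 80.4, 225 and 117 RPM in the uninjured portions, with a log2 fold change of 0.51 ± 0.70 (SE) and an adjusted p of 0.962 by edgeR. Abcc9 was lower in all 5 BDL portions than in the uninjured portion of their plate, with a log2 fold change of -0.41 ± 0.52 (SE) and an adjusted p of 0.955 by edgeR. Among FB-like clusters, Kcnj8 was 46.4 RPM in the Ptx3-led, 320.3 RPM in the Gria1-led, 318 RPM in the Comp-led and 111 RPM in the Notum-led cluster.

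The list of other potassium channel genes held 92 symbols, among them the opposite-strand transcripts Kcnmb4os1 and Kcnmb4os2, each with 0 UMIs in these groups. Of the 92 symbols, 75 had a UMI in a 10x group and 9 reached 20 CPM in a group of at least 100 cells. Of these, 7 had their highest level in VSMC-like cells. Among them were Kcnab1 (140.5 CPM), an auxiliary subunit of Kv1 channels such as Kcna5, Kcne4 (82.9 CPM), Kcnh2 (48.5 CPM), Kcnj12 (41.2 CPM) and Kcna2 (20.3 CPM), each in the library where it was highest. Kcnk2, a stretch-gated leak channel related to Kcnk3, was highest in FB-like cells, at 45.1 CPM in uninjured livers, while in uninjured livers HSC-like cells held 34.3 CPM and VSMC-like cells 5.56 CPM. Kcnip3 was highest in the unnamed cells at 6 weeks, at 29.95 CPM. In Smart-seq2, 27 of the 92 were tested in VSMC-like and 32 in FB-like wells. None passed an adjusted p of 0.05 by edgeR, beside at most 0.00767% of all genes in any comparison. At an unadjusted p under 0.05 by edgeR, VSMC-like wells had 3 for BDL, 1 for CCl4 and 3 for BDL against CCl4. The shares of all genes were 7.5%, 3.61% and 4.12%. FB-like wells had 1 for BDL and 0 for CCl4, beside 6.55% and 2.41% of all genes. The median log2 fold change for BDL in VSMC-like wells was 0.59 for these 27, 0.04 for the 6 members and 0.06 for all genes tested, and for CCl4 it was -0.16, -0.01 and 0.01.

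Of 16 genes of calcium handling, 12 had their highest 10x level among VSMC-like cells, and of 12 dilator genes 6 did. The share of all genes that peak in this type is not given, so these counts have no background. They take in near ties and low levels. Itpr1 of uninjured livers reached 108.2 CPM among HSC-like cells, close to its highest level below, and Cacna1d was at most 2.9 CPM. Among the calcium genes, the highest 10x levels were those of Atp2a2, the calcium pump of the sarcoplasmic reticulum, with 248 CPM in 6-week VSMC-like cells, Cacna2d1 (120.3 CPM) and Itpr1 (110.4 CPM), while Ano1, a calcium-activated chloride channel, was highest in HSC-like cells at 72 h, at 95.2 CPM. Of 12 dilator genes, Gucy1a3, a subunit of the nitric oxide receptor, held 735 CPM among VSMC-like and 541 CPM among HSC-like cells of uninjured livers. Calcrl, the receptor that with Ramp1 binds CGRP, a peptide whose receptor signal opens ATP-sensitive channels in vessels, was at 375 CPM in uninjured HSC-like and 20.2 CPM in VSMC-like cells, and Ramp1 at 1196 and 537 CPM. Pde3a stood at 139 and 221 CPM in the same order. In Smart-seq2 all 16 calcium genes were tested in VSMC-like and 13 in FB-like wells, and 12 dilator genes in each, with 0 called by edgeR. At an unadjusted p under 0.05 by edgeR the calcium genes had 0 in all 5 comparisons. The dilator genes had 2 each for BDL and CCl4 and 1 for BDL against CCl4 in VSMC-like wells, and 1 for BDL and 2 for CCl4 in FB-like wells. In the same order, the shares of all genes were 7.5%, 3.61% and 4.12% in VSMC-like wells and 6.55% and 2.41% in FB-like wells. The adjusted calls stood beside at most 0.00767% of all genes.

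Likeness of pattern was measured over 31 groups of cells, formed by 10x library and cluster, as Pearson's correlation of log2(CPM + 10) among 5217 genes. The groups share libraries, depth and protocol, and the values describe them. Among the 3 genes most like Kcnj8 were Ankrd50 (0.95) and Sept4 (0.95), and its value with Abcc9 was 0.91. Those most like Abcc9 were Ifitm1, Clec14a and Cdc42ep1 (0.97 each), those most like Kcna5 Asb2, Olfr558 and Rasd1 (0.99 each) and those most like Kcnma1 Slc11a1 (0.97), Lgr6 (0.96) and Sh3bgr (0.96). Kcnmb1 was most like the contractile genes Tpm2 (0.96), Tgfb1i1 and Myl9, and Kcnk3 most like Mrvi1 (0.90), Cald1 and Notch3. Kcna5 and Kcnk3 had a value of 0.78 with each other, against -0.44 for Kcnj8 with Kcna5.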

How the data were processed

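Per the labels and the study's methods, the authors made 10x UMI counts per gene and cell with Cell Ranger 2.1.0 (mm10), and Smart-seq2 read counts per gene and well with STAR and rpkmforgenes (mm10 with eGFP and spike-in sequences). Both kinds of count were deposited raw, and no other unit was used. The 6 genes, gene lists and tests were chosen with earlier results of these data known.

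Cells with at least 300 genes and at most 30% mitochondrial UMIs were kept. Clusters (Leiden, resolution 0.8, 10 components of 2000 variable genes without the genes reported here) were named from fixed markers for FB, HSC and VSMC. Doublets were scored against simulated ones and called in numbers that grew with the cells kept (238 to 427 per library), and were kept unless stated. The 6-week and 72 h libraries were each clustered with the uninjured libraries. CPM intervals are exact Poisson and shares exact Clopper-Pearson, at 95%. A floor is 3 counts. Intervals and floors cover counting error only. Thinned values leave out cells with fewer than 2000 UMIs. Lengths are GENCODE exon unions.

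Smart-seq2 wells of a type were summed per portion with at least 5 wells and tested with edgeR's quasi-likelihood test (TMM, filterByExpr, plate term, Benjamini-Hochberg threshold 0.05) on plates 1 to 5. Portions held 20999176 to 96347394 reads. The test was checked on simulated counts. The median dispersion of these simulations was 0.315 in VSMC-like and 0.479 in FB-like wells. Alternatives were DESeq2, no plate term, no filter, strict limits on wells, each portion left out, resolutions 0.4 and 1.2, thinning to 2000 UMIs, cells without doublets and, chosen after seeing the data, plates with both conditions, zonation bins with the unnamed cells and wells without the Higd1b-rich cluster. All 6 members were named; other potassium genes were named at 20 CPM or more or when called, calcium and dilator genes when called or among the 4 highest in VSMC-like or HSC-like cells. Some genes that these rules name are not reported here. Genes named to identify a cluster are among its 10 of highest fold, and Tagln, Myh11, Pln, Acta2, Spp1 and other marker genes were named after their values were seen. Python 3.11.15, NumPy 2.4.6, SciPy 1.17.1, leidenalg 0.10.2, R 4.3.3, edgeR 4.0.16 and DESeq2 1.42.0 were used.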

Additional observations from a re-analysis of the deposited data

Results flagged for a closer look

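In 11 of 42 groups of 4 to 10 Smart-seq2 portions (gene, type and condition), 1 portion stood further from the others than Dixon's 95% limit allows. The cause was not tested for any of them. Chance flags about 1 group in 20 where values are normally distributed, but many of these values lie at or near 0. The number flagged therefore cannot be set against that rate. In VSMC-like wells, Kcnma1 was 79.6 RPM in the CCl4 portion 1 of plate 3, with the next at 25.8 RPM, and Kcnmb1 was 143.9 RPM in the CCl4 portion 2 of plate 5, the lowest, with the next at 423 RPM. In FB-like wells, Abcc9 was 1287 RPM in the uninjured portion of plate 6, which had 18 such wells, with the next at 503 RPM. Kcnma1 was 20.8 RPM in the uninjured portion of plate 5, with the next at 1.29 RPM, and 4.857 RPM in the CCl4 portion 1 of plate 5, with the next at 0.403 RPM. Kcnmb1 was 13.08 RPM in the uninjured portion of plate 2 and 13.64 RPM in the CCl4 portion 1 of plate 3. Kcnk3 was 36.83 RPM in the BDL portion 2 of plate 1, which had 12 such wells, 2.949 RPM in the uninjured portion of plate 2 and 0.1561 RPM in the CCl4 portion 2 of plate 5. In unnamed wells, Abcc9 was 12.94 RPM in the CCl4 portion 1 of plate 3, with the next at 0.955 RPM.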

How the results depend on the processing

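Of 521 alternative fits of a member, 2 passed the threshold, both for Kcnma1 in FB-like wells of BDL against uninjured (DESeq2, adjusted p 0.000779, and edgeR with no filter on low counts, adjusted p 0.00584), and in 65 a value that passed nowhere had the other sign. The number of all genes called moved with the processing. In the order BDL, CCl4 and BDL against CCl4 in VSMC-like wells, then BDL and CCl4 in FB-like wells, edgeR called 1, 0, 0, 0 and 0, DESeq2 383, 191, 168, 351 and 119, and edgeR with no filter 148, 17, 14, 262 and 34. With no plate term edgeR called 32 for BDL and 1 for BDL against CCl4 in VSMC-like wells and 24 for BDL in FB-like wells. On plates with both conditions only, the BDL count in VSMC-like wells was 0. With 1 portion left out it was 0 to 8, being 8 without the BDL or the uninjured portion of plate 4, the count of BDL against CCl4 was 0 to 1, and the other counts were 0. At resolution 1.2, Kcnj8 in uninjured HSC-like cells was 568.1 CPM rather than 539 CPM. Kcna5 in the VSMC-like cluster richest in Higd1b was 272 and 302 CPM at resolutions 0.4 and 1.2. Thinning took the share with both Kcnj8 and Abcc9 to 46.3%, and turned the ratio of Kcnj8 between the most portal and most central bin at 72 h from 0.957 to 1.07. With the unnamed cells kept it was 1.27, and that of Abcc9 was 1.02 rather than 0.871. Of 288 alternative 10x levels, 49 left the counting interval and 9 moved by over 1.5 times, among them 5 of the Npnt-rich cluster without doublets, Kcnk3 in HSC-like cells (4.79 CPM uninjured at resolution 1.2, 9.22 CPM at 6 weeks at 0.4) Kcnmb1 there (5.21 CPM) and Kcnj8 in FB-like cells at 72 h thinned to 2000 UMIs (81.2 CPM). The cause was not tested. No paired analysis was possible because the replicate numbers of the portions do not mark a shared animal or litter across conditions, and plate is in the fit.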
